A study of Mus musculus with 4 samples.

Results

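The genes of the proteasome were examined in 4 cell lines of murine small cell lung cancer (SCLC), with 1 sequenced library per line. Members were all rows of the deposited table whose symbol is Psm, a letter from a to g and a number, which gave 48 genes among 54641 gene symbols. Of these, 5 encode the inducible parts of the immunoproteasome system (Psmb8, Psmb9, Psmb10, Psme1 and Psme2). The other 43 encode the constitutive and tissue-restricted subunits, other activators, the inhibitor and the assembly factors. The rule used names and no measured values. Values are CPM, that is, reads of a gene scaled to a library total of 1000000.

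The lines came from an autochthonous model in C57BL/6 mice, in which an adenovirus with Cre, given through the trachea, deletes conditional alleles of Rb1 and Trp53. This deletion is shared by all 4 lines, and no source used here names the promoter that drives Cre. Primary lung tumors gave P1, P4 and P5 (n = 3 lines) and a liver metastasis gave M1 (n = 1 line), each from a different animal by the design text of the series, although the tissue label of M1 also reads lung origin. All lines were cultured untreated and are labelled as wild type, that is, without a further knockout. The study included male and female mice above a minimal age. The age and sex of the donor of each line are not given in the sources used here, and each line is 1 isolate. The comparison of M1 with the primary lines addresses whether metastatic SCLC cells differ in transcription, here for the machinery that generates peptides for MHC-I.

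The proteasome is the main protease of the cytosol and nucleus. Its barrel-shaped core particle holds rings of beta subunits, in which Psmb5, Psmb6 and Psmb7 encode the constitutive catalytic subunits, between rings of alpha subunits that gate the entrance. A regulatory particle of ATPases (Psmc genes) and non-ATPase subunits (Psmd genes) recognizes ubiquitinated proteins, unfolds them and feeds them into the core. Under interferon, and without stimulation in many immune cells, Psmb8, Psmb9 and Psmb10 replace Psmb5, Psmb6 and Psmb7 in newly built cores. Psme1 and Psme2 encode the alpha and beta subunits of the activator PA28. The resulting immunoproteasome shapes the peptides that are presented on MHC-I.

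The libraries held 9527011 to 13890726 assigned reads, so that depth was similar, but they differed in the number of genes above 0. Above 0 were 17824 gene symbols in P1 and 20578 in P5, against 7985 in P4 and 10074 in M1. P1 and P5 shared 7534 genes at 10 CPM or more, of which P4 listed 19.8% at 0 and M1 10.1%. Of the 42 members in that range, 1 was at 0 in P4 (Psma5) and 0 were at 0 in M1. Values of 0 are therefore described as listed at 0, and no ratio of CPM is given against them, but they enter the differences on log2(CPM + 1). A count of 3 reads, taken as the floor, was 0.315 CPM in P1, 0.216 for P4, 0.260 for P5 and 0.269 for M1. Of 8 neuroendocrine marker genes, P1 listed 6 at 0, P4 7, P5 0 and M1 3, so that the SCLC label rests on few defining markers in P1 and P4. Ncam1 was the marker above 0 in every line, at 340 CPM in P1, 299 for P4, 1057 for P5 and 319 for M1.

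Of the 48 members, 46 reached 1 CPM in at least 1 library and were tested. The 2 others are tissue-restricted: Psma8, an alpha subunit of the testis, was listed at 0 in all 4 lines, and Psmb11, the catalytic subunit of the cortical thymic epithelium, was at 0.521 CPM in P5 and at 0 elsewhere. Together the members took up 0.788% of the P1 library, 0.726% for P5, 0.593% for M1 and 0.587% for P4. Differences between M1 and the primary lines were tested on log2(CPM + 1) with limma across all 14888 genes. As M1 is a single line, only the primary lines gave a spread, and a p-value asks whether M1 lies outside it. Of the 46 members, 0 passed an adjusted p of 0.05, as did 0% of all genes tested. The smallest adjusted p of a member was 0.470 (Psmb9; limma, Benjamini-Hochberg), and 1 member, again Psmb9, had an unadjusted p under 0.05.

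M1 had a higher value than every primary line for 10 members, a lower value than every primary line for 19, and a value within the primary range for 17. Over all genes tested, M1 was above every primary line for 22% and below for 20.7%. For genes whose mean was 10 CPM or more, these shares were 23.7% and 29.6%. Of the 45 members in that range, 9 (20%) were above and 19 (42.2%) below. The share above was thus near that of other genes, and the share below was higher. P4 weighed on the lower side. Without that line, M1 was below both remaining primary lines for 29 of 46 members (63.0%), against 59% of all genes tested. Of the 45 members whose mean was 10 CPM or more, 29 (64.4%) were below, against 53% of all genes in that range. The median log2 difference of the 46 members was -0.23, against -0.53 for all genes tested and -0.05 for those whose mean was 10 CPM or more. The members on the high side were Psmb8, Psmb9 and Psmb10, the core subunit genes Psma5, Psmb2 and Psmb6, the regulatory subunit gene Psmd14, the activator gene Psme3 and the assembly factor genes Psmd9 and Psmg1.

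**Figure D1:**
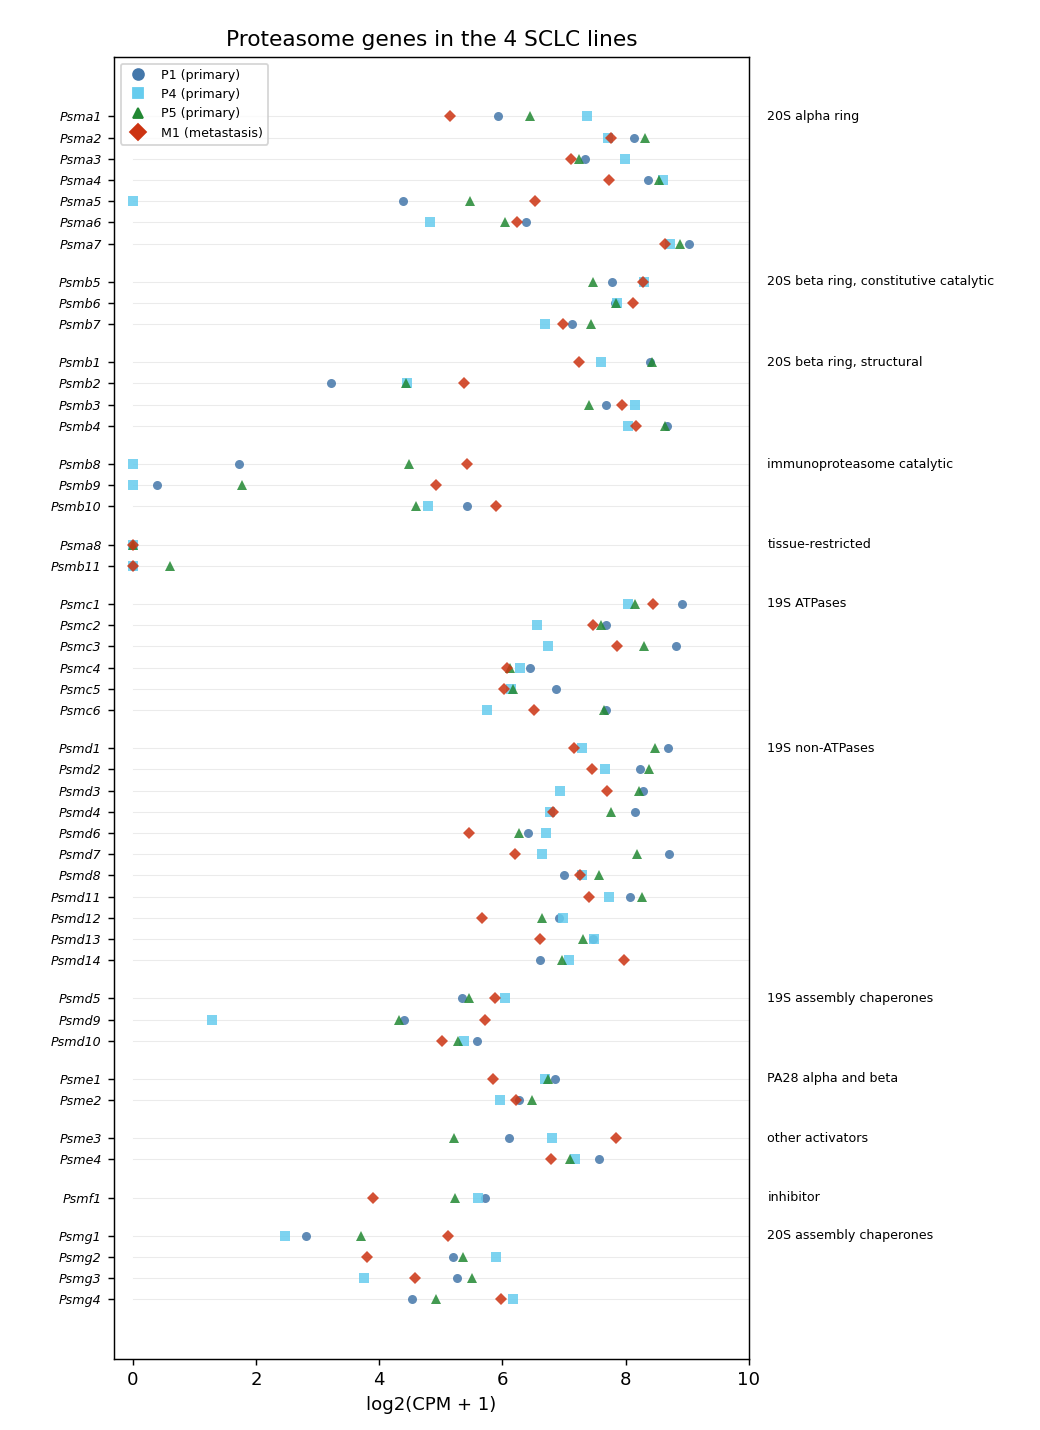
Level of each of the 48 proteasome genes in each line, as log2(CPM + 1) on the horizontal axis, with genes grouped by their place in the complex. Each symbol is 1 library. Of the 31 core and regulatory subunits, 16 have a highest value less than 2 times the lowest. Psmb8 ranges from 0 in P4 to 42.2 CPM in M1, Psmb9 from 0 to 29.5 CPM and the core subunit Psma5 from 0 to 91.7 CPM.

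The inducible catalytic subunits were examined first. Psmb8 (chromosome 17, 34198195 to 34201454 in GRCm38, the build also called mm10), whose product replaces that of Psmb5, was at 42.2 CPM in M1, 21.3 for P5, 2.31 for P1 and 0 in P4. The order was M1, P5, P1 and P4, and on the log2 scale the primary lines differed more from each other than P5 from M1. The log2 difference of M1 from the primary lines was 3.36 ± 2.24 (SE; limma, adjusted p = 0.721). It was smaller without P4, at 2.33, and larger without P5, at 4.57.

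Psmb9 (chromosome 17, 34182030 to 34187330), whose product replaces that of Psmb6, was at 29.5 CPM in M1, 2.43 for P5, 0.315 for P1 and 0 in P4. The value of P1 rests on 3 reads. M1 stood apart from all primary lines, which were in the same order as for Psmb8. The log2 difference was 4.20 ± 1.38 (SE; limma, adjusted p = 0.470). It was 3.84 without P4 and 2.56 with a pseudocount of 5. Psmb10 (chromosome 8, 105935728 to 105938392), whose product replaces that of Psmb7, was at 58.4 CPM in M1, 42.0 for P1, 26.7 for P4 and 23.2 for P5. It was thus detected in every line, including P4, in which both other inducible subunits were listed at 0. The log2 difference was 0.95 ± 0.65 (SE; limma, adjusted p = 0.721), and M1 was 1.91 times the primary mean of 30.6 ± 10.0 CPM (SD, n = 3).

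The constitutive counterparts did not show this order. Psmb5 was at 310 CPM in M1, 312 for P4, 218 for P1 and 177 for P5, so that M1 lay within the primary range. Psmb6 was the most even of the members above 0 in every line, at 225 CPM in P1, 231 for P4, 230 for P5 and 276 for M1 (primary mean 229 ± 3.12 CPM, SD, n = 3). M1 was above every primary line, at 1.21 times their mean, and the limma difference of 0.27 ± 0.35 on the log2 scale (SE; adjusted p = 0.746) was within the spread the fit allowed. Psmb7 was at 126 CPM in M1, 138 for P1, 102 for P4 and 173 for P5, so that M1 again lay within the primary range. The summed level of the 3 constitutive catalytic genes was 713 CPM in M1, against a primary mean of 603 ± 37.5 CPM (SD, n = 3), while that of the 3 inducible genes was 130 for M1, 44.6 for P1, 26.7 for P4 and 46.9 for P5.

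**Figure D2:**
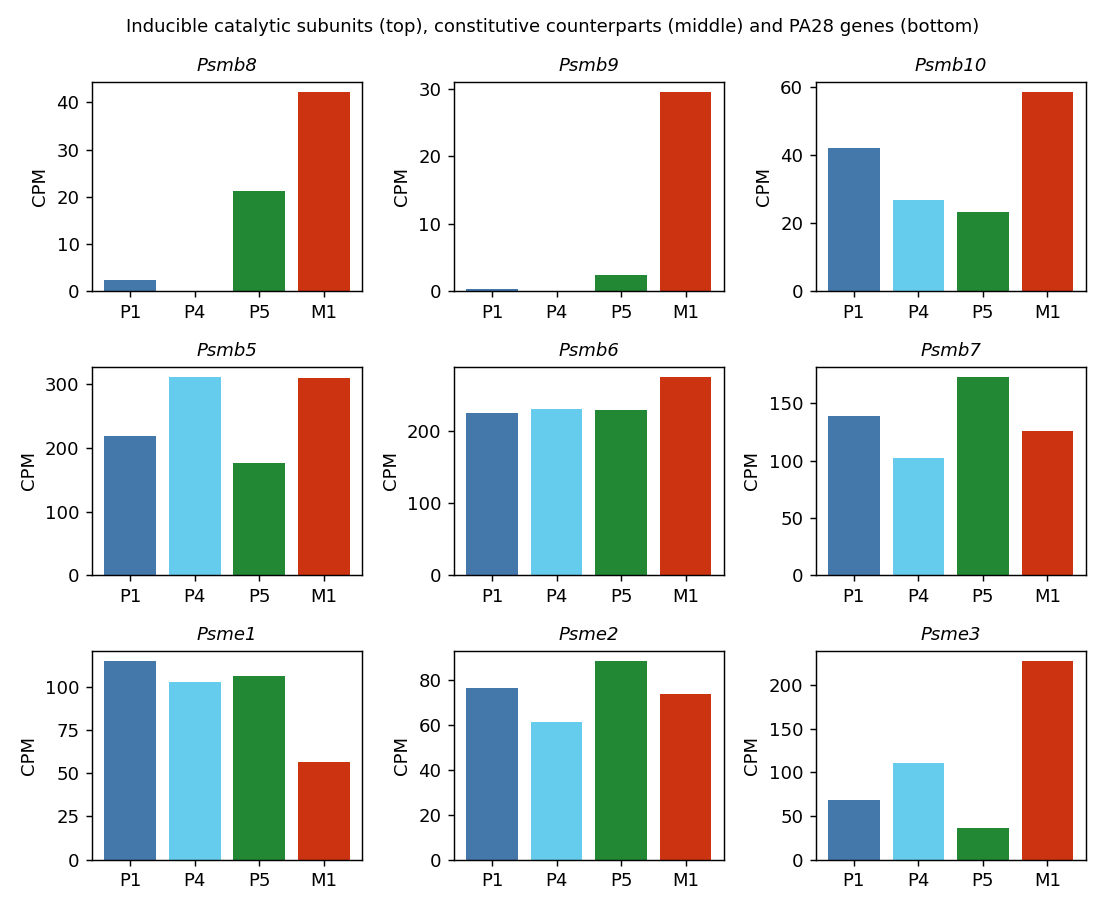
CPM of the inducible catalytic genes, their constitutive counterparts and the PA28 genes in each library. Bars start at 0, each bar is 1 library and each panel has its own scale. Psmb8, Psmb9 and Psmb10 are highest in M1, Psme1 is lowest in M1 at 56.3 CPM, and Psmb6 lies between 225 and 276 CPM in all 4 lines.

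To set each inducible gene against its counterpart within a library, which removes the scaling of the library, shares of reads were computed. Psmb8, Psmb9 and Psmb10 together held 15.4% of the reads of the 6 catalytic genes in M1 (95% Wilson interval 14.7% to 16.2%). The share was 7.12% in P1 (6.49% to 7.80%), 7.47% in P5 (6.89% to 8.10%) and 3.97% in P4 (3.59% to 4.38%). The interval of M1 did not overlap with those of the primary lines. These intervals cover counting error only and not the difference between lines.

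The 3 genes contributed differently. Psmb9 held 9.63% of the reads of Psmb9 and Psmb6 in M1 (8.69% to 10.7%), against 1.05% in P5 (0.724% to 1.51%) and 0.139% in P1 (0.0474% to 0.409%). In P4 there were 0 of 3215 reads, for which the interval reaches 0.119%. For Psmb8 and Psmb5, M1 and P5 were close, with 12.0% in M1 (10.99% to 13.0%) and 10.7% in P5 (9.52% to 12.1%), and these intervals overlapped. P1 was at 1.05% (0.692% to 1.58%), and P4 had 0 of 4341 reads, for which the interval reaches 0.0884%. Both limits for P4 cover counting error only. As P4 listed 19.8% of the genes at 10 CPM or more in P1 and P5 at 0, they do not bound the true shares. For Psmb10 and Psmb7, M1 was at 31.6% (29.7% to 33.7%), P1 at 23.3% (21.3% to 25.3%), P4 at 20.7% (18.9% to 22.7%) and P5 at 11.8% (10.5% to 13.2%). P5 was thus next to M1 for Psmb8 and lowest of all lines for Psmb10.

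**Figure D3:**
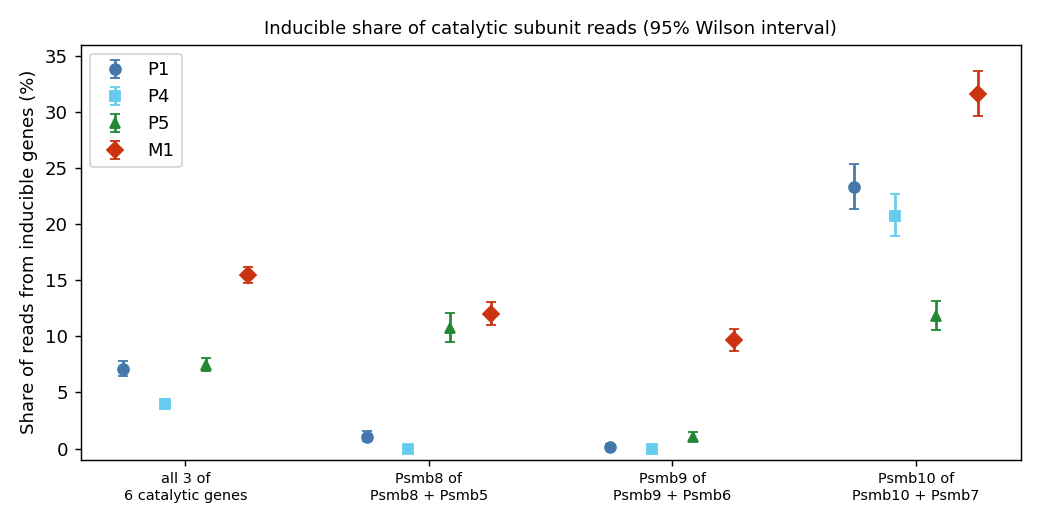
Share of catalytic subunit reads that came from the inducible genes, in percent, for all 3 genes together and for each gene with its counterpart. Symbols are libraries and bars are 95% Wilson intervals. M1 is highest in each set, at 15.4% for all 3 genes, while M1 and P5 overlap for Psmb8.

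The log2 ratio of each inducible gene to its counterpart was compared between M1 and the primary lines with an exact permutation test. As 1 line against 3 allows 4 arrangements, p cannot fall below 0.25, and 5 pairs were compared. For Psmb9 to Psmb6 the ratio of (CPM + 1) was higher in M1 than in all 3 primary lines by a mean of 3.93 log2 units (two-sided exact p = 0.25, adjusted p = 0.50), and by 2.30 with a pseudocount of 5. For Psmb8 to Psmb5 the mean difference was 2.93 (exact p = 0.50, adjusted p = 0.50), since the primary lines ranged from -8.29 in P4 to -3.00 in P5, next to -2.85 in M1, and it was 1.68 without P4 and 1.83 with a pseudocount of 5. For Psmb10 to Psmb7 it was 1.05 (exact p = 0.50, adjusted p = 0.50), and 0.70 without P5. M1 had the highest ratio of the 4 lines in each of these 3 pairs, but the design could not place any of them past a threshold of 0.05.

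The sequences around the start sites of these genes were read from RefSeq (GRCm38.p6) to show what the promoters of inducible and constitutive subunits hold. They are given from 250 bases before to 50 bases after the start, on the strand of the gene. A window was found for 40 of the 48 members, not including Psmb7. Capitals mark matches, on either strand, to the gamma-activated site TTCNNNGAA of interferon gamma signaling, to the core of the interferon-stimulated response element (GAAA, repeated after a gap of 2 bases) bound by IRF factors, to the antioxidant response element core TGACNNNGC bound by NRF1 and NRF2, or to CCAAT. No match overlapped another motif in these windows. Psmb8 and Psmb9 are shown as the inducible subunits that were listed at 0 in P4 and highest in M1, Psme1 as the inducible gene that was lowest in M1, and Psmb5 and Psmb6 as constitutive counterparts.

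Psmb8, chr17:34197945-34198244 (plus strand): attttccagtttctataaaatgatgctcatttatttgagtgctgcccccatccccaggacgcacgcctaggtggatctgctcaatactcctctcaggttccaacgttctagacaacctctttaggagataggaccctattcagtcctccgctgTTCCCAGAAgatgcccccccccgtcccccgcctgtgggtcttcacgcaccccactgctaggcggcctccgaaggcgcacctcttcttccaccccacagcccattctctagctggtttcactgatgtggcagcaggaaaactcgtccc
Psmb9, chr17:34187281-34187580 (minus strand): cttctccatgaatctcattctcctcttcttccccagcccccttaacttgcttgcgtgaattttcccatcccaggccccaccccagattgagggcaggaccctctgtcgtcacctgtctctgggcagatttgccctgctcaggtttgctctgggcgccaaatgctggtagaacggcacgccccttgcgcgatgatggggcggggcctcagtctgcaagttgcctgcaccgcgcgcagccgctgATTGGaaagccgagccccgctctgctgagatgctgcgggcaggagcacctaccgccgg
Psme1, chr14:55578244-55578543 (plus strand): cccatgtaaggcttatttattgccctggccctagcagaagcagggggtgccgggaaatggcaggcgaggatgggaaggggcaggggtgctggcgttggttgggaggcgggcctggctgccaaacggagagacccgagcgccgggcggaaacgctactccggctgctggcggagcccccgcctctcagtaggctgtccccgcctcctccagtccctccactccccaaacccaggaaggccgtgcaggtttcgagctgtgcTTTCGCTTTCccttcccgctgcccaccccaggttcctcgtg
Psmb5, chr14:54617946-54618245 (minus strand): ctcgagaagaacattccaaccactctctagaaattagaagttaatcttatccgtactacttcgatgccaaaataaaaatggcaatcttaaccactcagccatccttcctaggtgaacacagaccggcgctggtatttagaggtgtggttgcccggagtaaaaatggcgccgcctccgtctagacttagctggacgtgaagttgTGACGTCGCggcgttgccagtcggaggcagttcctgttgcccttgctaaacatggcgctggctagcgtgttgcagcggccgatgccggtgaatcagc
Psmb6, chr11:70525107-70525406 (plus strand): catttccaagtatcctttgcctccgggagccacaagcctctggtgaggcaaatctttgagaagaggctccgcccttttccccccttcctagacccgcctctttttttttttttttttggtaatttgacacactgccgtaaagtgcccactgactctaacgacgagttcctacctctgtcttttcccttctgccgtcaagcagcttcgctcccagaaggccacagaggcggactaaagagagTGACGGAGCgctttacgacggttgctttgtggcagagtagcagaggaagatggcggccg

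Positions count from the start site as base 1, with negative numbers before it. In Psmb8 the capitals are a gamma-activated site whose first base lies at position -97 from the start. The motif reads the same on both strands and was present in 8.30% of all 32851 promoter windows. In Psmb9 they are a CCAAT box on the reverse strand at -8, a motif held by 37.4% of windows. The Psme1 window held the interferon-stimulated core on the reverse strand, with its first base at position 10 after the start, a match found in 3.44% of windows. Psmb5 and Psmb6 each held the antioxidant response element core, at -47 and -9, against 12.4% of all windows. Psmb10 and Psme2 had 0 matches to the 4 motifs. Among the 40 members with a window, 3 held the gamma-activated site (Psmb8, Psmd2 and Psmg1), 5 the interferon-stimulated core, 6 the antioxidant core and 14 CCAAT. These shares (7.50%, 12.5%, 15.0% and 35.0%) describe letters in a window and say nothing of binding.

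Psmb9 shares its promoter region with the peptide transporter gene Tap1, whose start lies 226 bases away on the other strand. The listed values of the pair did not have the same order: Tap1 was at 5.88 CPM in P1 and 8.07 for P5 and was listed at 0 in M1, where Psmb9 was highest, and in P4. M1 listed 5058 of all 14888 genes tested at 0, so the 0 of Tap1 is not taken as absence of the transcript. Psmb8 starts 10865 bases from Psmb9 in the same MHC region.

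A further list joined genes commonly induced together with the immunoproteasome to receptor and kinase genes of interferon signaling. These genes of the interferon response and of MHC-I loading were set beside the values above. Of 11 such genes, 10 were tested, M1 was above every primary line for 3 (22% of all genes tested) and below for 0 (20.7% of all genes), and 0 passed the threshold (median log2 difference 0.44, against -0.53 for all genes tested). Nlrc5, the transactivator of MHC-I genes, was at 19.96 CPM in M1, 1.13 for P5, 0.315 for P1 and 0 in P4 (log2 difference 3.89 ± 1.08, SE; limma, adjusted p = 0.383). This is the order of Psmb8 and Psmb9, but also of the constitutive core gene Psma5 (91.7 CPM in M1, 43.5 for P5, 19.8 for P1 and 0 in P4). The share of all genes with this order was not counted. Tap2, a gene outside the naming rule that was picked for its values, was at 5.46 CPM in M1, 1.04 for P5, 0.840 for P1 and 0 in P4.

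Not all other genes of the list followed this pattern. Irf1, an inducer of Psmb9 and Tap1, was at 46.2 CPM in M1, 47.1 for P1, 69.0 for P5 and 0.0720 for P4. Of the 11 genes, 7 were listed at 0 in P4, among them Jak2 and Ifngr1, against 1 in P1, 0 in P5 and 1 in M1. P4 was thus low for the inducible subunits Psmb8 and Psmb9 and for most genes of this list. Of all 14888 genes tested, P4 listed 7105 at 0, and of those at 10 CPM or more in P1 and P5 it listed 19.8% at 0. The second share does not cover Irf8, Nlrc5, Tap1 and Tap2, which were under 10 CPM in P1 and P5. The part of these zeros in the values was not tested.

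**Figure D4:**
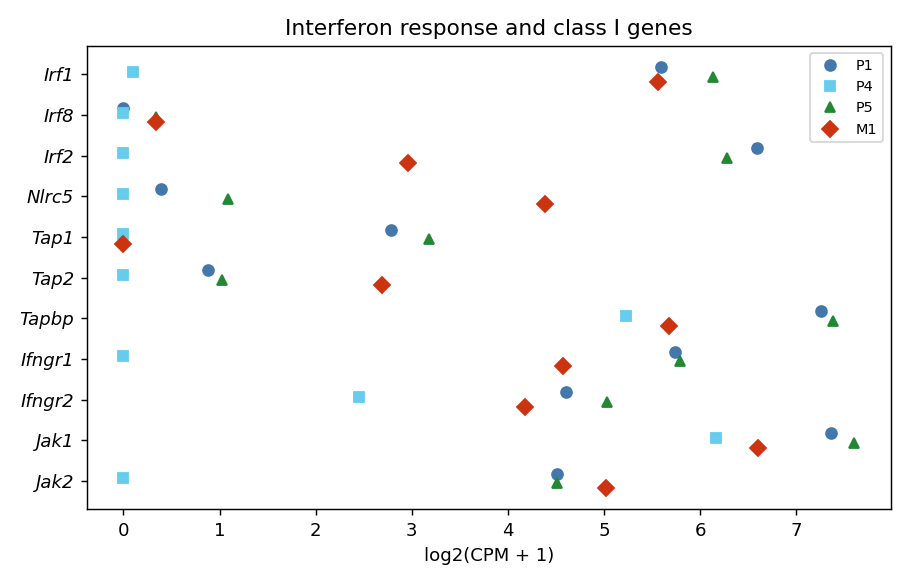
Level of 11 interferon response and MHC-I genes in each line, as log2(CPM + 1). Each symbol is 1 library. Nlrc5 and Tap2 are highest in M1, Tap1 is listed at 0 in M1, and 7 of the 11 genes are at 0 in P4.

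Since immune cells carry immunoproteasomes without stimulation, their markers were also examined. Summed over 15 immune cell markers, the level was 216 CPM in M1, 1.36 for P1, 0.144 for P4 and 1.56 for P5. In M1, 10 of the 15 were above every primary line, among them Lyz2 (47.4 CPM), Fcer1g (39.2 CPM), Laptm5 (39.1 CPM) and H2-Eb1 (27.8 CPM). All 10 were under 1 CPM in the primary lines and were tested only because of M1, so that each had to come out on the high side, and the share of 22% over all genes tested is no measure for them. The defining markers Ptprc, Cd3e, Coro1a, Rac2 and Cd52 were listed at 0 in M1. The summed level of the markers was highest in M1, as were Psmb8, Psmb9 and Psmb10. It rests on the 10 markers that entered through M1 and not on these defining ones, and its part in the difference was not tested. In bulk libraries, the number of cells of a type and the RNA per cell cannot be told apart. In the primary lines, where P5 had 21.3 CPM and P1 2.31 CPM of Psmb8, the summed immune markers were at 1.56 CPM and 1.36 CPM. These sums rest on few reads, with 9 of the 15 markers at 0 in P5 and 9 in P1, and their relation to Psmb8 was not tested.

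The genes of PA28 did not follow the catalytic subunits. Psme1 (chromosome 14, 55578494 to 55581527) was at 56.3 CPM in M1, 115 for P1, 103 for P4 and 106 for P5. M1 was below all primary lines, which lay close together at 108 ± 6.41 CPM (SD, n = 3), and was at 0.521 times their mean. The log2 difference was -0.93 ± 0.40 (SE; limma, adjusted p = 0.640). Psme2 (chromosome 14, 55587440 to 55591101) was at 73.7 CPM in M1, 76.5 for P1, 61.4 for P4 and 88.5 for P5, within the primary range. The log2 difference was close to 0, at -0.02 ± 0.47 (SE; limma, adjusted p = 0.983).

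Psme2 has a copy on chromosome 11, Psme2b, between which reads could be divided. Psme2b was at 35.6 CPM in P1, 52.4 for P5, 0.341 for P4 and 0 in M1. The sum of both genes was 112 CPM in P1, 141 for P5, 61.7 for P4 and 73.7 for M1. M1 remained within the primary range, but both P1 and P5 were now above it by a wider margin, and the log2 difference was -0.42.

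Psme3, which encodes the nuclear activator PA28 gamma, was highest in M1. It was at 228 CPM in M1, 111 for P4, 68.2 for P1 and 36.2 for P5. M1 was above every primary line, at 3.17 times their mean of 71.8 ± 37.5 CPM (SD, n = 3), and the log2 difference was 1.79 ± 0.78 (SE; limma, adjusted p = 0.636), or 1.03 with a term for library pair. Of the reads of Psme1, Psme2 and Psme3, Psme3 held 63.7% in M1 (62.2% to 65.2%), 40.4% in P4 (38.8% to 42.0%), 26.3% in P1 (24.6% to 28.0%) and 15.7% in P5 (14.3% to 17.1%). The order of the lines is the same with Psme2b included, at 63.7%, 40.3%, 23.1% and 12.8%. The log2 ratio of Psme1 to Psme3 was lower in M1 than in each primary line, with a mean difference of -2.72 (two-sided exact permutation p = 0.25, the smallest possible, adjusted p = 0.50). That of Psme2 to Psme3 had a mean difference of -1.81 (exact p = 0.50, adjusted p = 0.50).

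The remaining regulators of the core were below every primary line in M1. Psme4, which encodes the activator PA200, was at 109 CPM in M1, against a primary mean of 156 ± 28.0 CPM (SD, n = 3). Psmf1, which encodes the proteasome inhibitor PI31, was at 14.0 CPM in M1, 51.6 for P1, 47.7 for P4 and 36.7 for P5. M1 was at 0.308 times the primary mean, and the log2 difference was -1.62 ± 0.59 (SE; limma, adjusted p = 0.526).

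**Figure D5:**
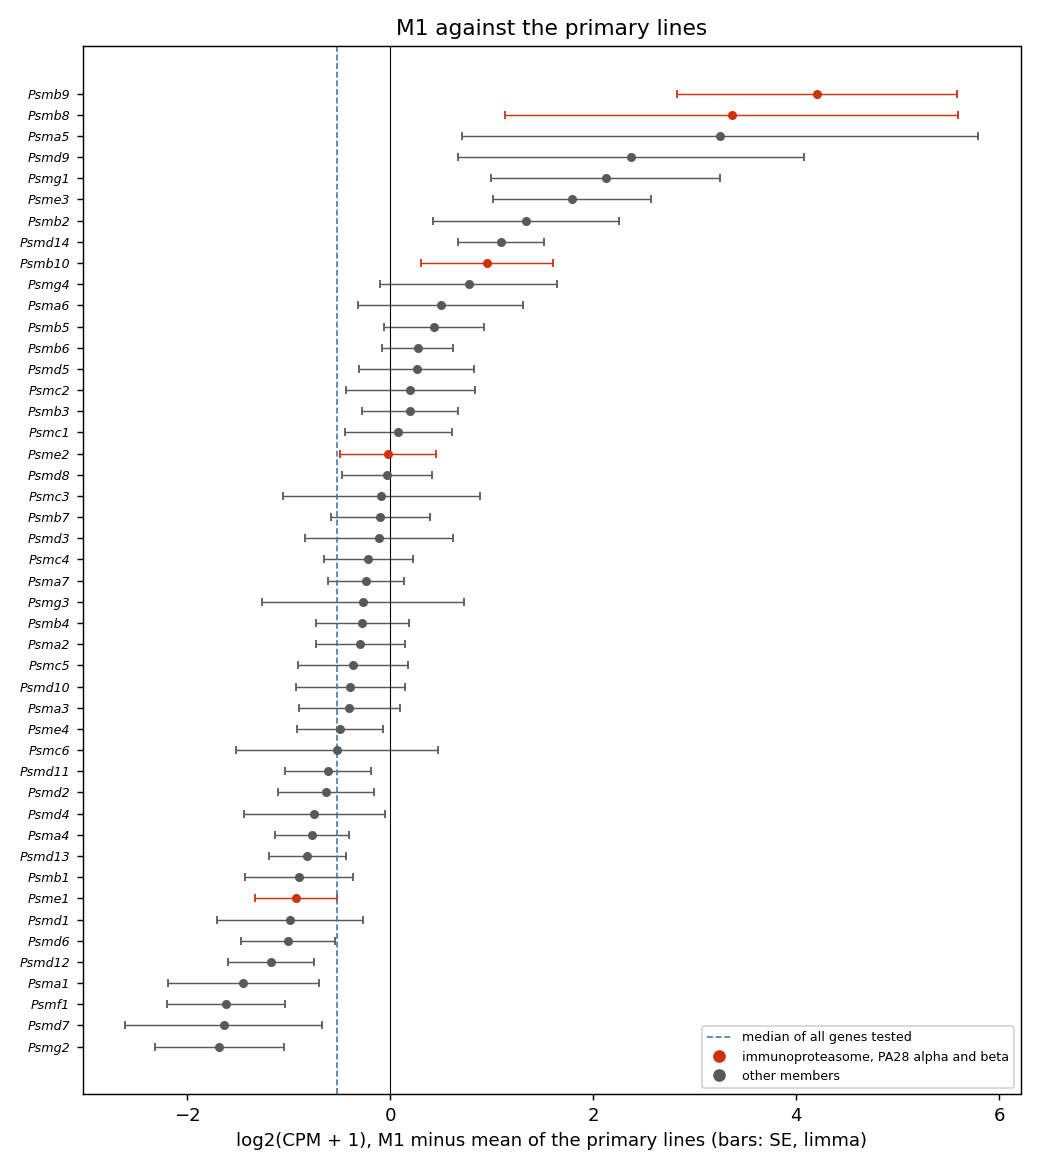
Difference of M1 from the mean of the primary lines in log2(CPM + 1) for the 46 tested members, with SE from limma. Red points are the immunoproteasome genes and both PA28 genes, and the dashed line is the median of all genes tested (-0.53). Psmb9 (4.20) and Psmb8 (3.36) lie at the top, Psme2 (-0.02) in the middle and Psme1 (-0.93) among the lower members.

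Of the 7 genes of the alpha ring, M1 was above every primary line for 1 and below for 4, where the shares over all genes whose mean was 10 CPM or more were 23.7% and 29.6%. Psma7, which had the highest CPM of the group with no correction for length, was at 523 CPM in P1, 422 for P4, 469 for P5 and 398 for M1. Psma4 was at 212 CPM in M1 against 362 ± 31.5 CPM in the primary lines (SD, n = 3), and Psma3 at 138 CPM against 188 ± 56.3 CPM. Psma2 was within the primary range, at 216 CPM in M1. Psma6 was at 74.8 CPM in M1, within the primary range of 27.4 to 82.0 CPM. Psma5 was at 91.7 CPM in M1, 43.5 for P5, 19.8 for P1 and listed at 0 in P4. As the alpha ring contains the product of each of these genes, the 0 of an obligate subunit in P4 is given as listed and not as absence of the transcript. The log2 difference of Psma5 was 3.25 ± 2.54 (SE; limma, adjusted p = 0.721), and 1.61 without P4. Psma1 was highest in P4, at 165 CPM, and lowest in M1, at 34.3 CPM, with 59.9 CPM in P1 and 86.7 for P5 (log2 difference -1.45 ± 0.74, SE; limma, adjusted p = 0.721). The summed level of the 7 alpha genes was lowest in M1, at 1455 CPM in P1, 1464 for P4, 1499.5 for P5 and 1164 for M1.

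Of the structural beta subunits, Psmb4 was at 288 CPM in M1, within the primary range of 263 to 406 CPM (log2 difference -0.27 ± 0.46, SE; limma, adjusted p = 0.756). Psmb3 was also within the primary range, at 245 CPM in M1. Psmb1 was below every primary line, at 151 CPM against 291 ± 85.2 CPM (SD, n = 3). Psmb2 was above every primary line, at 40.5 CPM against 8.29 CPM in P1, 20.9 for P4 and 20.7 for P5. Each direction was thus present within the same ring.

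In the regulatory particle, the ATPase genes and the non-ATPase genes are described in turn. Of the 6 ATPase genes, M1 was above every primary line for 0 and below for 2 (Psmc4 and Psmc5), beside shares of 23.7% and 29.6% among genes of that range. Psmc1 was at 349 CPM in M1, 482 for P1, 262 for P4 and 285 for P5 (log2 difference 0.08 ± 0.53, SE; limma, adjusted p = 0.938). Psmc3 showed a wide range among the primary lines themselves, from 106 CPM in P4 to 449 for P1, with M1 at 232 CPM. Psmc6 was similar, at 53.0 CPM in P4, 204 for P1, 201 for P5 and 89.9 for M1. Psmc2, the remaining ATPase gene, was at 177 CPM in M1, against a primary mean of 163 ± 60.8 CPM (SD, n = 3).

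Of the 11 non-ATPase genes, M1 was above every primary line for 1 and below for 7, again beside 23.7% and 29.6%. Without P4, M1 was below both P1 and P5 for 53% of genes of that range. That share is not set against the 7, which were counted with P4. The median log2 difference of the 11 genes was -0.75. The gene on the high side was Psmd14, which encodes the deubiquitinase that removes ubiquitin chains from substrates. It was at 250 CPM in M1, 96.5 for P1, 134 for P4 and 124 for P5. M1 was at 2.12 times the primary mean of 118 ± 19.3 CPM (SD, n = 3; difference on the log2 scale 1.09 ± 0.42, SE; limma, adjusted p = 0.567). Psmd7, which encodes the partner of this enzyme in the lid of the particle, was at 72.8 CPM in M1, 98.7 for P4, 291 for P5 and 417 for P1 (log2 difference -1.64 ± 0.97, SE; limma, adjusted p = 0.721). P4 was near M1 for Psmd7, whereas P1 and P5 were above both, and with a term for library pair the log2 difference was -0.43.

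The lid genes Psmd12, Psmd6 and Psmd13 separated M1 from all primary lines. Psmd12 was at 50.0 CPM in M1, 120 for P1, 126 for P4 and 99.1 for P5 (log2 difference -1.17 ± 0.42, SE; limma, adjusted p = 0.525). Psmd6 was at 42.9 CPM against 87.9 ± 14.1 CPM, and Psmd13 at 96.5 CPM against 171 ± 11.3 CPM (SD, n = 3). In these genes the primary lines differed less from each other than from M1. Psmd1 and Psmd2, scaffold subunits of the particle, were at 142 and 175 CPM in M1, 155 and 202 for P4, and between 299 and 410 for P1 and P5. Psmd11 was likewise lowest in M1, at 169 CPM against 262 ± 47.5 CPM (SD, n = 3). Psmd4, which encodes a ubiquitin receptor, was at 112 CPM in M1, 108 for P4, 217 for P5 and 283 for P1. Psmd3 and Psmd8 were within the primary range, at 207 and 152 CPM in M1.

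Summed over the 31 core and regulatory subunits, the level was 5048 CPM in M1, 5122 for P4, 6583 for P5 and 7124 for P1. M1 and P4 were thus alike in the sum. The 17 subunits of the regulatory particle differed more between lines (2253 to 4131 CPM, lowest in P4 and highest in P1) than the 14 of the core (2601 to 3009 CPM, lowest in M1 and highest in P5). Of the 31 genes, 30 were above 0 in every line, 16 of them had a highest value less than 2 times the lowest, and the median ratio of highest to lowest was 1.86.

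Proteasome assembly needs dedicated chaperones, and these were examined next. Psmg1 and Psmg2 encode partners in a heterodimer that starts the alpha ring, but they lay on opposite sides of the primary lines in M1. Psmg1 was at 33.7 CPM in M1, 5.98 for P1, 4.54 for P4 and 12.1 for P5 (log2 difference 2.12 ± 1.13, SE; limma, adjusted p = 0.721). Psmg2 was at 13.0 CPM in M1, 35.8 for P1, 58.4 for P4 and 40.3 for P5 (log2 difference -1.68 ± 0.63, SE; limma, adjusted p = 0.551). In neither gene did M1 overlap with the primary lines. Psmg3 and Psmg4, which encode a further pair, were within the primary range, at 22.8 and 62.1 CPM in M1.

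Psmd5, Psmd9 and Psmd10 encode chaperones of the ATPase ring. Psmd9 was at 51.4 CPM in M1, 20.3 for P1, 19.01 for P5 and 1.44 for P4, so that M1 was highest and P4 far below the others (log2 difference 2.37 ± 1.71, SE; limma, adjusted p = 0.721). Without P4 the log2 difference was 1.34. Psmd5 was within the primary range, at 57.7 CPM in M1 against 49.1 ± 13.7 CPM (SD, n = 3; difference on the log2 scale 0.26 ± 0.56, SE; limma, adjusted p = 0.804). Psmd10, which encodes gankyrin, was at 31.5 CPM against 41.8 ± 4.95 CPM. The genes of 12 members overlap another gene of the table, 5 of them a gene that reached 1 CPM in a line, and without a stated strand these reads cannot be told apart. The overlapping gene was Erlec1 for Psme4 (up to 37.8 CPM), Gm15542 for Psmd13 (up to 36.4 CPM), Atg4a for Psmd10 (up to 11.5 CPM) and Emc9 for Psme1 (up to 7.03 CPM).

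Genes that work with the proteasome but are not named as its members were read from fixed lists. Of 8 associated proteins tested, M1 was above every primary line for 2 and below for 1, where the shares over all genes tested were 22% and 20.7%. Pomp, the maturation factor of the core, was the gene below, at 414 CPM in M1, 572 for P1, 704 for P4 and 549 for P5. Sem1, a small subunit of the regulatory particle outside the naming rule, was named after its values were seen. It was at 643 CPM in M1, 717 for P4, 141 for P5 and 50.2 for P1, and thus separated P4 and M1 from the other libraries. Nfe2l1, which encodes NRF1, the factor that raises proteasome genes when proteasome activity is short, was at 30.0 CPM in M1, 53.0 for P1, 103 for P4 and 125 for P5. It was below every primary line (log2 difference -1.52 ± 0.69, SE; limma, adjusted p = 0.656). Of the 6 shuttle factors 0 were above and 1 below, of the 4 genes that control proteasome transcription 0 and 2, and of the 8 ubiquitin and segregase genes 2 and 3, beside the same shares of 22% and 20.7%. In each of these lists 0 genes passed the threshold.

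A shared order of libraries ran through many members. P1 and P5 were both above P4 and M1 for 18 (40.0%) of the 45 members whose mean reached 10 CPM and both below for 8 (17.8%). The shares over all 8261 genes in that range were 36.3% and 16%, so that proteasome genes were near the background. The 18 included 4 ATPase genes (Psmc2, Psmc3, Psmc5 and Psmc6), 6 non-ATPase genes (Psmd1, Psmd2, Psmd3, Psmd4, Psmd7 and Psmd11) and both PA28 genes. The 8 included Psmb5, Psmb6, Psmd14 and Psme3. Psmb8, Psmb9 and Psmb10 were in neither set. The column names of P1 and P5 share a number that no source used here explains, and both libraries had more genes above 0. Their part in these orders was not tested.

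The evenness of subunits was compared with other complexes of fixed composition. For each line, the SD over subunits of the log2(CPM + 1) difference from the mean of P1 and P5 was taken. For the 31 core and regulatory subunits it was 1.15 in P4, with Psma5 at 0 included, and 0.84 in M1. It was 0.72 and 0.96 for the 8 subunits of the CCT chaperonin, 1.75 and 1.19 for the 13 of eIF3, and 1.13 and 2.12 for the 9 of the COP9 signalosome, a relative of the lid, in which Cops4 was listed at 0 in M1. P5 and P1 differed from each other by an SD of 0.45 for the proteasome. The proteasome was thus neither the most nor the least even of these complexes in P4, and it was the most even in M1, as a description of these libraries without a test.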

How the data were processed

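Total RNA of 4 untreated lines was sequenced, 1 library per line. The authors deposited CPM values in 1 table, with a total of 1000000 for every library. The genome build per the labels is mm10, and no source used here states which aligner and counting tool made the table. The study's methods describe an alignment by Bwa to GRCm39 that leads to mutation calling. The labels name a total RNA kit whereas the study's methods name a 3' mRNA kit, so levels were not compared between genes per length. Of 54838 rows, 85 without a symbol (0.00672% to 0.0130% of a library) were left out, and values of rows with the same symbol were added. A read was taken to be worth the commonest value above 0. With a tolerance of 0.001 reads, 79.0% to 88.9% of values were whole reads, so that the values derive from estimated counts and no count model was fitted.

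Lines were grouped by sample title. M1 was compared with P1, P4 and P5 by limma 3.58.1 in R 4.3.3 (lmFit, eBayes with trend) on log2(CPM + 1), two-sided, over genes that reached 1 CPM in any library. The Benjamini-Hochberg adjusted p had to fall under 0.05. A difference on this scale understates changes of low genes, and genes that stayed under 1 CPM in the primary lines entered only through a higher M1. Nothing says that the lines have replicate cultures, so p-values measure the spread between libraries only. On simulated data for genes with a primary mean of at least 10 CPM, the fit recovered known differences where lines varied little. It recovered none where the spreads of the primary lines were shuffled over genes, so that no gene was simulated with its own spread by design. Ratios and shares used Python 3.11.15 with scipy 1.17.1. The members, gene lists and tests were chosen with earlier results of these data known. Named genes were the 5 inducible members and 4 counterparts, the 5 largest positive and negative differences, members listed at 0 in a line with at least 10 CPM in another, the highest member of each subunit group, and, of the pathway and complex lists, genes at least 2 log2 units outside the primary range together with 4 regulators. Marker lists are given as sums with examples. Further members are given by their CPM. Alternatives were other pseudocounts (0.25 and 5), filters, scaling, row handling and variance model, a term for library pair, and each primary line left out. Protein sequences were not used here, and 1 gene was left out of the interferon list and is not reported here.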

Additional observations from a re-analysis of the deposited data

How the results depend on the processing

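No paired analysis was possible because M1 is the only metastatic line and, by the design text, came from a different animal than the primary lines. Of the 46 tested members, 0 passed the threshold in the reported fit and under all 12 alternatives of the fit, the summing of Psme2 with Psme2b among them, which was added after the data were seen. The 5 ratios kept their direction under every alternative, but those of Psmb8 and Psmb9 were smaller with a pseudocount of 5, at 1.83 and 2.30. Of 24 named members with a fit, 17 kept the sign of their log2 difference and 7 did not under at least 1 alternative. With libraries rescaled, which moved the median of all genes from -0.53 to -0.44, Psme2 was at 0.16 and Psmb7 at 0.081. With a term for library pair, so that M1 is set against P4, Psme2 was at 0.26, Psmb7 at 0.30, Psmb4 at 0.13, Psmb5 at -0.011, Psmd5 at -0.17 and Psmg4 at -0.19. That term also moved Psma5 to 6.53, Psmb8 to 5.43, Psmd9 to 4.42, Psma1 to -2.24, Psme3 to 1.03, Psmd7 to -0.43, Psmd1 to -0.12 and Psma7 to -0.083, so that the order of members by size depends on the fit. Leaving out a primary line gave -0.086 to 0.35 for Psmc1 (-0.025 without P5), -0.16 to 0.10 for Psme2 and -0.29 to 0.084 for Psmb7. The number of members below every primary line was 19 to 29 with a line left out, the highest without P4. P1 had 6 members under 10 CPM but 3 under 1 CPM, the only line in which this minimum mattered by over 1.5 times. The spread of COP9 signalosome subunits in M1 was 2.70 with a pseudocount of 0.25 and 1.48 with 5, with Cops4 at 0 in M1. Genes listed at 0 limit every comparison with P4.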
